A study of Mus musculus with 6 samples.

Results

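The genes of DNA replication and nucleotide synthesis were followed in clones of RAW264.7, an established mouse macrophage line. They are 44 listed genes that encode origin, helicase, polymerase, clamp loader, nucleotide synthesis, cyclin E and E2F, and chromatin replication proteins. They were taken by symbol from the 16387 probe sets that carry 1 gene symbol, and 42 of the 44 were measured, each by 1 probe set whose number is the Entrez gene ID. Pcna, the sliding clamp, and Chaf1a, a chromatin assembly subunit, were not analysed here. The study hybridised total RNA to 6 Affymetrix arrays, 3 from a clone transfected with a recombinant Ms4a8a cDNA (clone 8) and 3 from a clone transfected with the empty expression vector (clone 3). Ms4a8a encodes a membrane protein of the CD20 family. Both clones had been selected with blasticidin and were cultured for 48 h without a further stimulus. The comparison asks how a clone that carries the Ms4a8a vector differs from a clone that carries the empty vector.

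Each arm is 1 clone, so the transgene and the clone cannot be told apart. The design text calls the cDNA Ms4a8a and writes Ms4a4a once, where it describes the selected clone. Whether a clone's 3 arrays represent different cultures is not stated in the labels, so the p-values refer to the scatter among the arrays only, and that scatter may be technical. All values are the deposited log2 values, which run between 2.24 and 14.6 on every array around a median of 5.94. A value of 1 probe set is not set against that of another, because probe sets differ in response.

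Cells copy their genome once in each cycle. The origin recognition complex marks start sites and, with Cdc6 and Cdt1, loads the MCM helicase ring, which Cdc45 and the GINS complex later switch on. Polymerases then extend primed strands, the RFC complex loads the sliding clamp, RPA coats single strands, and ribonucleotide reductase and thymidine enzymes supply deoxynucleotides. Many of these genes are transcribed under E2F factors as cells enter S phase, the stage of DNA synthesis, and cyclin E acts at that entry. RAW264.7 cells divide in culture, and resting tissue macrophages mostly do not.

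E2F factors bind close to the start of many replication genes, so the promoters of the helicase genes Mcm5, Mcm6 and Mcm7 and of the origin gene Orc1 are shown, with that of the thymidine kinase gene Tk1 as a member without the letters searched. The sequences are from RefSeq on build GRCm38.p6 and hold 300 bases, 250 before and 50 after a transcript start, written 5′ to 3′ on the strand of the gene. Capitals mark the letters TTTCCCGC, TTTGGCGC, TTTCGCGC or TTTGCCGC on either strand. The windows are chr8:75109259-75109558 (plus strand) for Mcm5, chr1:128359656-128359955 (minus strand) for Mcm6, chr5:138171834-138172133 (minus strand) for Mcm7, chr4:108579204-108579503 (plus strand) for Orc1 and chr11:117825965-117826264 (minus strand) for Tk1.
Mcm5: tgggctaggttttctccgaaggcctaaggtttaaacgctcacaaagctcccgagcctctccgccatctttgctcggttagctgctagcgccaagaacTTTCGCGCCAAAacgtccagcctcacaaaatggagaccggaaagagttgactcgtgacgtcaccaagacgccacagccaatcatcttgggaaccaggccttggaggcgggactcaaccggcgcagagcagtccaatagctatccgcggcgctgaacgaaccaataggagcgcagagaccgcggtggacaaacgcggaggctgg
Mcm6: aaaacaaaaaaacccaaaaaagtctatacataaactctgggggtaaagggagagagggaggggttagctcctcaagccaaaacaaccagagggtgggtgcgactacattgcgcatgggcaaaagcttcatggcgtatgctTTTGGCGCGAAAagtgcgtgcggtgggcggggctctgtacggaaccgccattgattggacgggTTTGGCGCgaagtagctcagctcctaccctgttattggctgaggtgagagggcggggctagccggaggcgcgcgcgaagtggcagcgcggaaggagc
Mcm7: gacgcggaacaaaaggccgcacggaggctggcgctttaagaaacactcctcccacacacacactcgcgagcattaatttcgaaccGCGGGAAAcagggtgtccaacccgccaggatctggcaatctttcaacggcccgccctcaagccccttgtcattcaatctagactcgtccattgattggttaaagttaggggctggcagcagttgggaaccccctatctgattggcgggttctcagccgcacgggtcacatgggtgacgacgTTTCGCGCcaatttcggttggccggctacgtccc
Orc1: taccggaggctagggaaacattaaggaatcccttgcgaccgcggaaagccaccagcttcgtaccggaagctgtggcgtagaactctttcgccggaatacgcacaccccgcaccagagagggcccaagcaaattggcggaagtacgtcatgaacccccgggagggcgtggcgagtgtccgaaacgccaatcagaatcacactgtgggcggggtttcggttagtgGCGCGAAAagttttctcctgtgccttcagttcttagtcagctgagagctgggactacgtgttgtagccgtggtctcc
Tk1: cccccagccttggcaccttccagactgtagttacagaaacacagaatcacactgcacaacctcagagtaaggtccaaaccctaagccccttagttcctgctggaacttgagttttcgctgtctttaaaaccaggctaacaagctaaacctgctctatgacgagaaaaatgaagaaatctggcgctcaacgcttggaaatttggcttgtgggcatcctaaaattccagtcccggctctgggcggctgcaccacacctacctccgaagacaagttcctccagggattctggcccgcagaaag
In Mcm5, matches on opposite strands begin at -153 and -149 relative to the first transcribed base and overlap. Mcm6 holds a like overlapping pair at -110 and -106 and a further match at -47. Mcm7 holds matches at -165 and 17 in this window, and a second window of the same gene holds none. The match of Orc1 begins at -27. Of the 42 measured genes, 35 had a promoter window in the RefSeq table used, and 15 of these (42.9%) held the letters in at least 1 window. The share was 3.9% of the 13080 measured genes with a window, and 22% of 82 other replication, nucleotide and S phase genes. By windows, the letters stood in 35.7% of the 42 windows of the measured replication genes and in 3.28% of the 16422 windows of all measured genes. Over all 32851 promoters, with unmeasured genes, the share was 2.26%. The letters CCAAT, the core of the NF-Y site, stood in 57.1% of the 35 genes and in 42% of the 13080. The origin and licensing genes held the E2F letters in 3 of 5 genes, the helicase genes in 4 of 7 and the polymerase genes in 4 of 6, while none of 4 nucleotide synthesis genes and none of 2 RPA genes held them. A match is a description of these letters only.

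Ms4a8a itself read 7.40, 7.90 and 8.15 on arrays 1, 2 and 3 of the Ms4a8a clone, against 3.07, 3.32 and 3.22 on those of the vector clone. The groups did not overlap, and the difference was 4.61 on the log2 scale (SE 0.20, 24.4-fold), with a limma adjusted p of 0.0121. Array 3 stood apart in both clones, in the replication genes and beyond. Of 10 macrophage markers, 9 read higher on array 3 than on both other arrays in both clones, a pattern held by 26.3% of all genes. Their medians on arrays 1, 2 and 3 were 11.8, 11.7 and 12.5 in the Ms4a8a clone, against 12.0, 12.0 and 12.6 in the vector clone. Adgre1, which encodes the F4/80 antigen, had the largest rise of the 10. It stood 2.12 higher on array 3 of the Ms4a8a clone and 2.48 higher on that of the vector clone than the mean of arrays 1 and 2. Csf1r stood only 0.13 higher in the Ms4a8a clone and 0.15 higher in the vector clone. Fcgr1, the exception, differed on that measure by 0.48 in the Ms4a8a clone and -0.03 in the vector clone. The 6 measured lymphocyte markers had medians between 3.79 and 3.97 on the 6 arrays, and the 8 fibroblast and epithelial markers between 3.42 and 3.56, near the low end of the table. Single markers read higher. Cd3e lay between 5.17 and 5.62 on the 6 arrays, closer to the median of the table, and Pdgfrb reached 4.94 on array 3 of the Ms4a8a clone. The labels give no reason for the difference of array 3, and the part of the macrophage markers in the results below was not tested.

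Every one of the 42 replication genes read lower on array 3 than on arrays 1 and 2 of its own clone, in both clones. That pattern was held by 33.1% of all genes, and by 42.1% of the genes at or above the median level, where 41 of the 42 lay. The value on array 3 minus the mean of arrays 1 and 2 of the same clone is called the array 3 difference here. Its median over the 42 was -2.05 in the Ms4a8a clone (4.13-fold lower) and -1.25 in the vector clone (2.38-fold lower). Over all genes the medians were -0.02 in the Ms4a8a clone and -0.04 in the vector clone. The array 3 difference was -1 or lower in both clones for 29 of the 42, against 2.8% of all genes and 5.17% of those at or above the median level, and 1 or higher in both for 0, against 3.73%. Arrays 1 and 2 of a clone differed in these genes by a median of 0.07 and by at most 0.43, over 84 pairs of values. With 1 array of number 3 per clone, and with that number singled out from earlier results of these data, these differences are descriptions without a test. In bulk RNA, fewer cells in S phase and less of these transcripts per cell cannot be told apart.

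**Figure D1:**
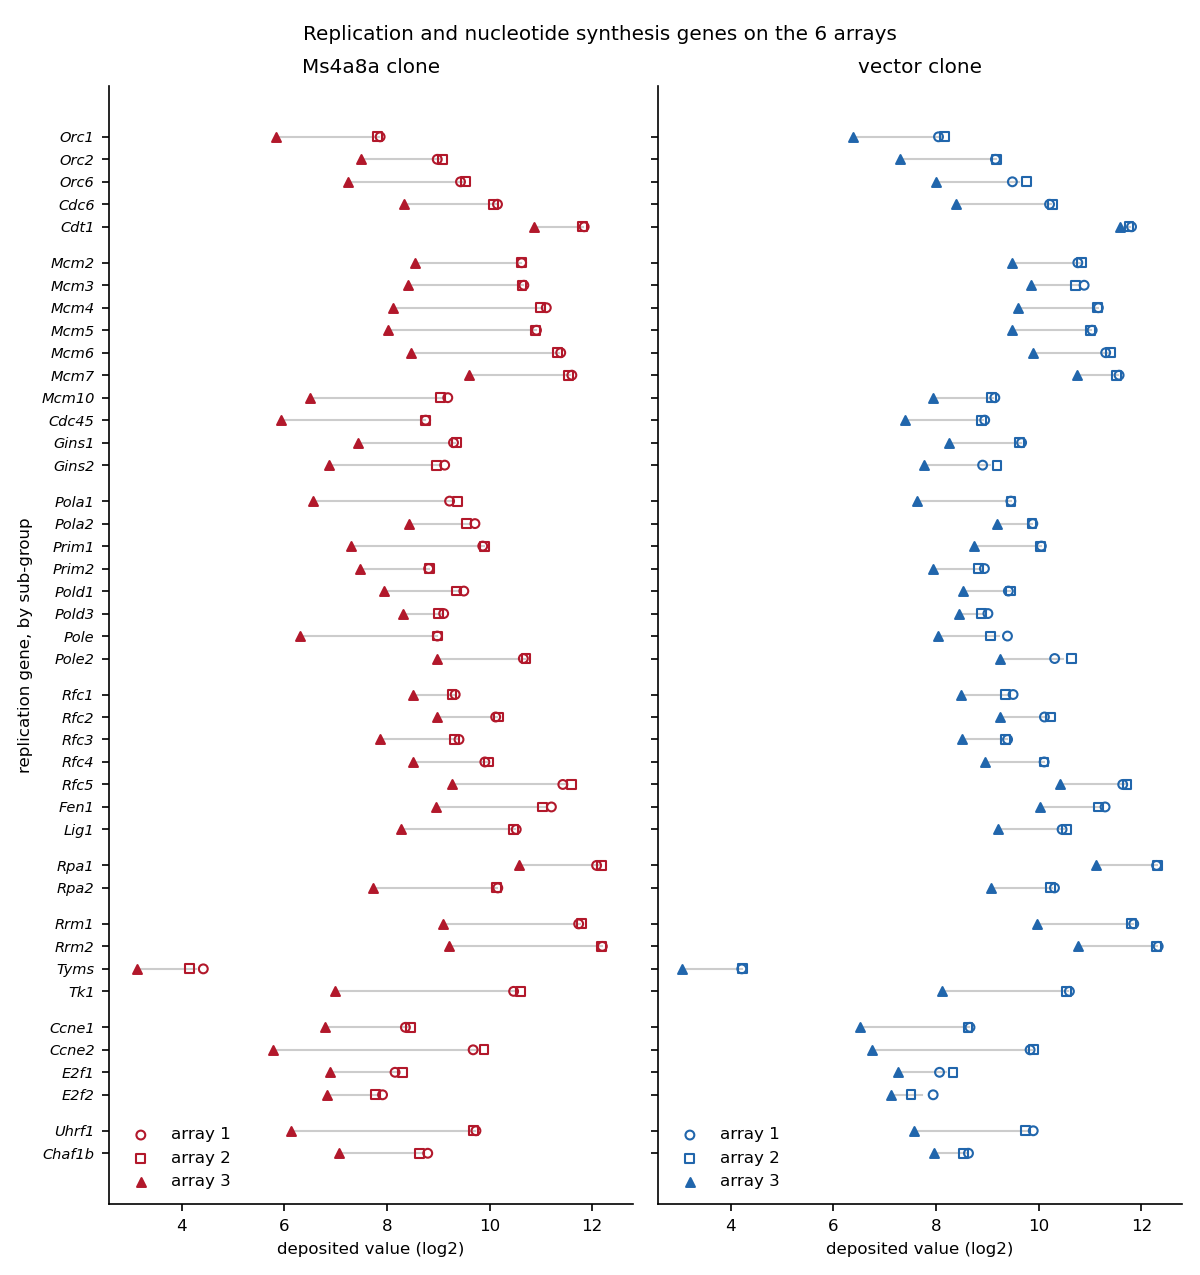
Deposited log2 values (x axis) of the 42 measured replication genes (y axis, by sub-group), with the Ms4a8a clone on the left and the vector clone on the right. Circles, squares and triangles stand for arrays 1, 2 and 3, and the grey line joins array 3 to the mean of arrays 1 and 2. In all 42 genes the triangle lies left of the other symbols in both clones.

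**Figure D2:**
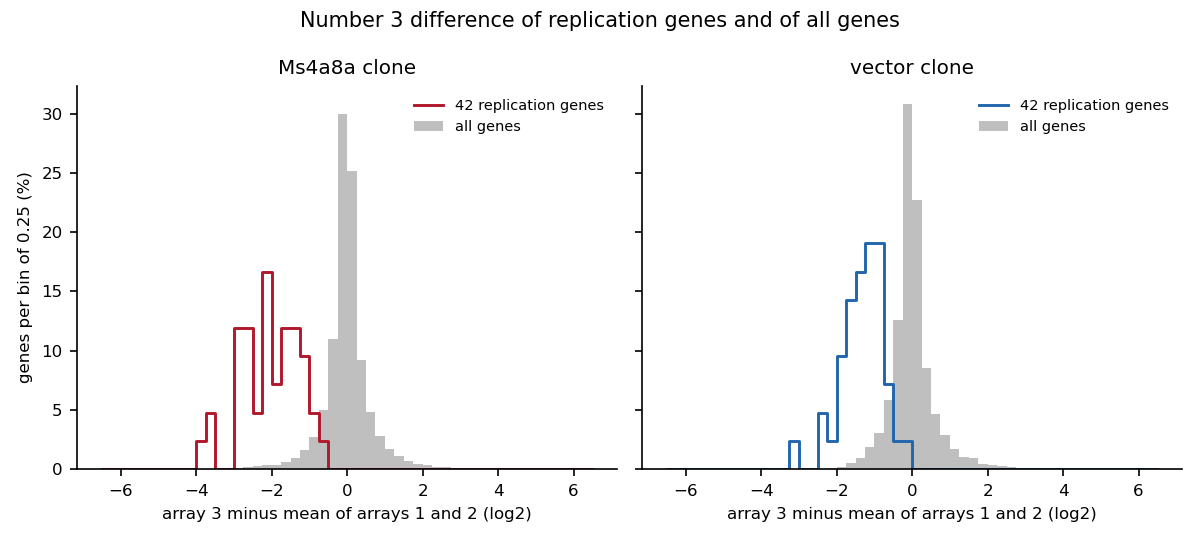
Distribution of the difference between array 3 and the mean of arrays 1 and 2 (x axis, log2) as a percentage of genes per bin of 0.25 (y axis), with the Ms4a8a clone on the left and the vector clone on the right. The coloured outline shows the 42 replication genes, with medians of -2.05 in the Ms4a8a clone and -1.25 in the vector clone, and the grey bars show all 16387 genes, with medians of -0.02 in the Ms4a8a clone and -0.04 in the vector clone.

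The array 3 difference was the lower one in the Ms4a8a clone for 37 of the 42 genes, against 47.9% of all genes, and lower there by 0.5 log2 units or more for 27, against 4.85%. These shares are over all genes, most of which moved little on array 3, and not over genes that fell alike. The median over the 42 of the Ms4a8a minus the vector array 3 difference was -0.79. Across the 42 genes, the array 3 difference in the Ms4a8a clone and that in the vector clone had a Pearson r of 0.746 and a Spearman rho of 0.704. These coefficients run across genes that share the same arrays, and genes are not independent replicates. The same coefficients over all genes were 0.865 and 0.766. The median ratio of the array 3 differences, Ms4a8a over vector, was 1.62 on the log2 scale. It was 1.19 over 98 other replication, nucleotide and S phase genes, described below. Over all genes it was 0.733, but most of their array 3 differences lay near 0, where a ratio is unstable. That value is therefore not a background for the 1.62.

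**Figure D3:**
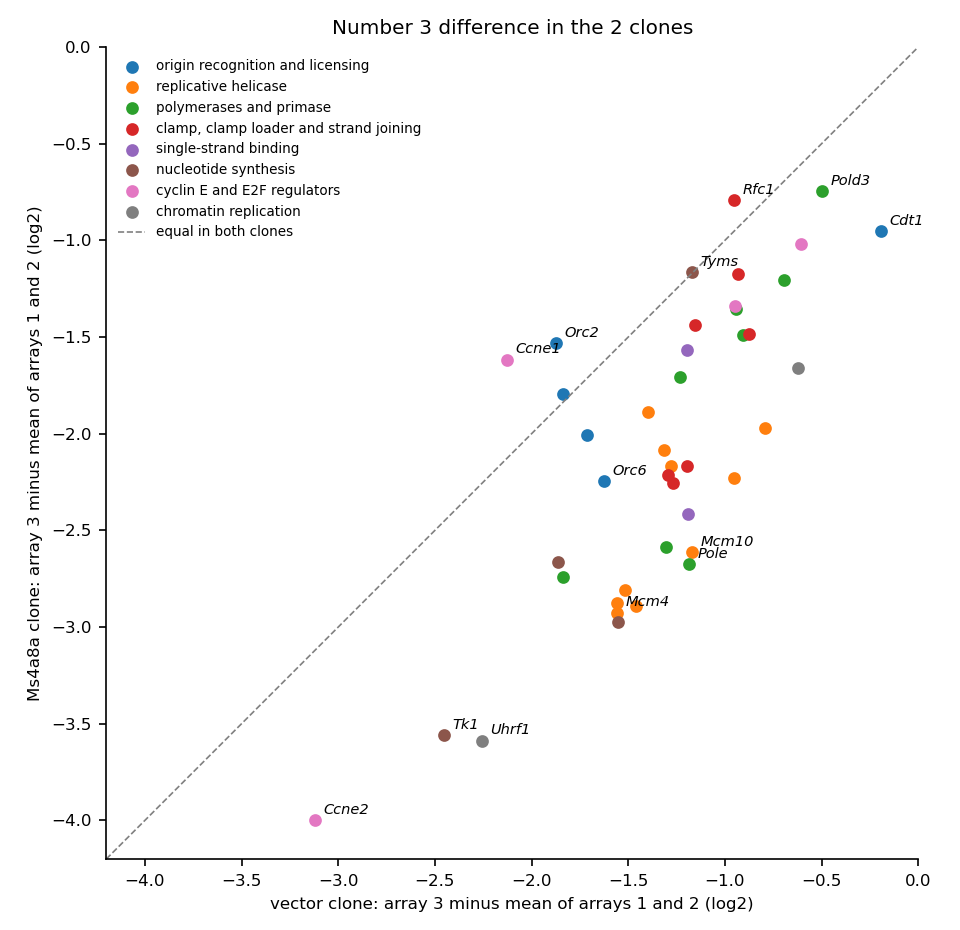
Difference between array 3 and the mean of arrays 1 and 2 (log2) in the Ms4a8a clone (y axis) against the same in the vector clone (x axis), 1 point per gene, coloured by sub-group. Points under the dashed line, 37 of 42, have the lower array 3 difference in the Ms4a8a clone, and Ccne2, Tk1 and Uhrf1 have the lowest in both clones.

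At numbers 1 and 2 the clones lay close together in these genes, and at number 3 the Ms4a8a clone lay lower. The median difference, Ms4a8a minus vector, was -0.13 at number 1, -0.09 at number 2 and -0.88 at number 3, against -0.02, -0.01 and 0.01 over all genes. The Ms4a8a array was the lower of the pair for 28 of 42 genes at number 1 (53.4% of all genes), for 35 at number 2 (51.9%) and for 38 at number 3 (47.9%). At number 3 it was lower by 1 log2 unit or more for 16 of the 42, against 1.29% of all genes and 1.82% of those at or above the median level. Those 16 were Mcm3, Mcm4, Mcm5, Mcm6, Mcm7, Mcm10, Cdc45, Pola1, Prim1, Pole, Rfc5, Fen1, Rpa2, Rrm2, Tk1 and Uhrf1. The Ms4a8a clone was lower at all 3 numbers for 23 genes (18.9% of all genes, and 23.4% of those at or above the median level), and higher at all 3 for 0 (17.2%). For 0 of the 42 did all 3 Ms4a8a arrays lie below all 3 vector arrays, against 3.99% of all genes. Array 3 of the vector clone lay below arrays 1 and 2 of the Ms4a8a clone in each of the 42. Such a separation was thus not possible, and this count does not bear on the clone difference.

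**Figure D4:**
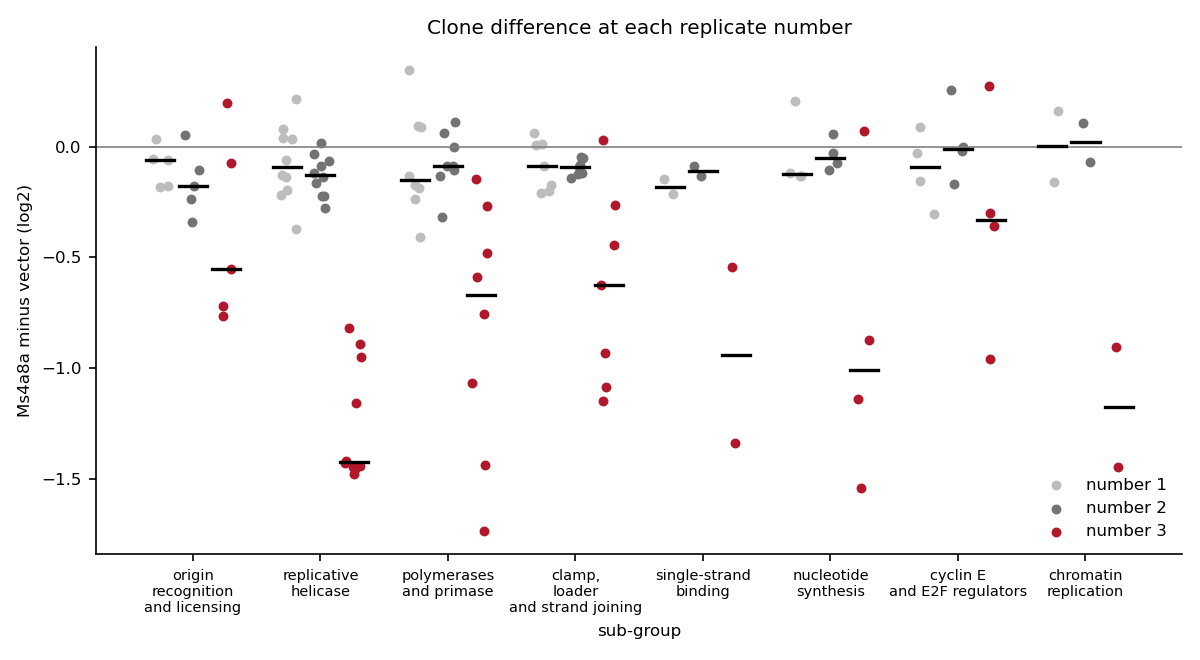
Ms4a8a minus vector (y axis, log2) at replicate numbers 1 (light grey), 2 (dark grey) and 3 (red) for each of the 42 genes, by sub-group (x axis), with black bars at the medians. The helicase genes lie between -1.48 and -0.82 at number 3, and the 42 genes together have medians of -0.13, -0.09 and -0.88 at numbers 1, 2 and 3.

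The clone difference was tested by limma on all 6 arrays, with Benjamini-Hochberg adjustment over 16387 genes and a threshold of 0.05. None of the 42 passed, where 7 of all genes did (0.0427%). At an unadjusted p under 0.05 the count was also 0 of 42, against 3.2% of all genes, and every adjusted p of the 42 was 1. This fit counts the array 3 difference as scatter within a clone. The SE was 0.92 for Mcm4 and 1.41 for Ccne2, against 0.27 for Mcm4 and 0.19 for Ccne2 with the replicate number as a block. These counts of 0 therefore do not show that the clones are alike in these genes. The median clone difference of the 42 was -0.36, against -0.00 over all genes, and its size and sign depended on the arrays used. Without array 1, 2 or 3 of the Ms4a8a clone it was -0.70, -0.68 or 0.33, and without array 1, 2 or 3 of the vector clone -0.14, -0.09 or -0.81. Leaving out 1 array leaves the numbers unequal between the clones, so the array 3 difference enters as a clone difference. The sign turned only without Ms4a8a array 3, where the low array 3 of the vector clone was kept. With the same numbers in both clones, the median was -0.13, -0.09 and -0.88 at numbers 1, 2 and 3. It was -0.11 without both arrays of number 3. With the replicate number as a block, 0 of the 42 passed either, where 149 of all genes did (0.909%). In that model 8 of the 42 had an unadjusted p under 0.05 with the Ms4a8a clone lower, 19% against 6.3% of all genes, and 0 with it higher, against 7.01%. The smallest blocked adjusted p belonged to Gins1, at 0.163, with a difference of -0.49 (95% interval -0.78 to -0.20). Orc1 followed with -0.36 (-0.59 to -0.13, limma blocked adjusted p = 0.189) and Pola2 with -0.41 (-0.72 to -0.11, limma blocked adjusted p = 0.238). The other 5 were Rpa1 (-0.30), Rfc4 (-0.25), Mcm2 (-0.44), Pole (-0.75) and Orc6 (-0.35), with blocked adjusted p between 0.304 and 0.371 in limma. When both arrays of number 3 were left out of the blocked model, 434 of all genes passed (2.65%) and 0 of the 42. There 4 of the 42 had an unadjusted p under 0.05 with the Ms4a8a clone lower, where 7.62% of all genes did. They were Gins1, Orc1, Pola2 and Ccne1. That model was chosen after seeing the data and rests on arrays 1 and 2 of each clone, which leaves little to estimate the scatter. The check of pairs described below does not tell its numbers 1 and 2 apart.

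Among the 5 origin and licensing genes the median array 3 difference was -1.79 in the Ms4a8a clone and -1.72 in the vector clone. Orc6, a subunit of the origin recognition complex, read 9.43, 9.52 and 7.23 on arrays 1, 2 and 3 of the Ms4a8a clone, against 9.49, 9.76 and 8.00 in the vector clone. Array 3 was the lowest in each clone, 4.74-fold under the mean of arrays 1 and 2 in the Ms4a8a clone and 3.08-fold in the vector clone, and the ranges of the clones overlapped. Orc2, another subunit of that complex, read 8.98, 9.08 and 7.50 in the Ms4a8a clone, against 9.16, 9.18 and 7.30 in the vector clone. Its order at number 3 was the opposite of that of Orc6, with the Ms4a8a array higher by 0.20 and the clones overlapping. Cdt1, which delivers the helicase to origins, read 11.84, 11.81 and 10.87 in the Ms4a8a clone, against 11.81, 11.76 and 11.59 in the vector clone. Its vector arrays lay within a narrow range, with an array 3 difference of -0.19, while that of the Ms4a8a clone was -0.95. Orc1, the largest subunit, had array 3 differences of -2.01 in the Ms4a8a clone and -1.72 in the vector clone. Cdc6, the loading ATPase, had array 3 differences of -1.79 in the Ms4a8a clone and -1.84 in the vector clone.

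The 10 helicase genes lay lower in the Ms4a8a clone at number 3 without exception, with differences between -1.48 and -0.82. Their median array 3 difference was -2.42 in the Ms4a8a clone (5.36-fold lower) and -1.35 in the vector clone (2.56-fold lower). Mcm4, a subunit of the helicase ring, read 11.11, 10.99 and 8.12 on arrays 1, 2 and 3 of the Ms4a8a clone, against 11.16, 11.15 and 9.60 in the vector clone. Numbers 1 and 2 of both clones lay within a narrow band, array 3 of the vector clone lay below it and array 3 of the Ms4a8a clone lower still, 2.79-fold under its vector counterpart. Mcm10, which helps the helicase to start, read 9.19, 9.05 and 6.51 in the Ms4a8a clone, against 9.15, 9.09 and 7.95 in the vector clone. As for Mcm4, the array 3 of the Ms4a8a clone was the lowest of the 6 and that of the vector clone the next lowest, with array 3 lower by 6.11-fold in the Ms4a8a clone and 2.25-fold in the vector clone. The other ring subunits Mcm2, Mcm3, Mcm5, Mcm6 and Mcm7 had array 3 differences between -2.89 (Mcm6) and -1.97 (Mcm7) in the Ms4a8a clone, and between -1.56 (Mcm5) and -0.79 (Mcm7) in the vector clone. Mcm5 and Mcm6, whose promoters are printed above, lay 2.72-fold and 2.68-fold lower in the Ms4a8a clone at number 3. Cdc45, the activator of the ring, lay 2.75-fold lower there. The GINS genes differed less between the clones at number 3, with Gins1 1.76-fold and Gins2 1.86-fold lower in the Ms4a8a clone.

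The 8 polymerase and primase genes had median array 3 differences of -1.60 in the Ms4a8a clone and -1.06 in the vector clone, with a wide spread between genes. Pola1, the catalytic subunit of the polymerase that first extends primers, read 9.22, 9.37 and 6.55 on arrays 1, 2 and 3 of the Ms4a8a clone, against 9.46, 9.46 and 7.62 in the vector clone. Array 3 was lowest in both, 6.69-fold under the mean of arrays 1 and 2 in the Ms4a8a clone and 3.57-fold in the vector clone. Pole, the catalytic subunit of the leading strand polymerase, read 8.98, 8.98 and 6.31 in the Ms4a8a clone, against 9.39, 9.07 and 8.04 in the vector clone. At number 3 the Ms4a8a array was 3.33-fold lower, and the ranges of the clones still overlapped, as arrays 1 and 2 of the Ms4a8a clone lay above array 3 of the vector clone. Pole2, an accessory subunit of the same polymerase, read 10.66, 10.71 and 8.98 in the Ms4a8a clone, against 10.31, 10.65 and 9.25 in the vector clone. At numbers 1 and 2 its Ms4a8a arrays were the higher ones, and at number 3 the order was turned. Pold3, an accessory subunit of the lagging strand polymerase, read 9.11, 9.00 and 8.31 in the Ms4a8a clone, against 9.01, 8.89 and 8.46 in the vector clone. Array 3 lay closer to the other arrays than for the rest of the sub-group in both clones, lower by 1.68-fold in the Ms4a8a clone and 1.41-fold in the vector clone. The catalytic subunit of that polymerase, Pold1, had array 3 differences of -1.49 in the Ms4a8a clone and -0.91 in the vector clone. Prim1, the catalytic subunit of primase, had -2.59 in the Ms4a8a clone and -1.30 in the vector clone on that measure. Prim2, its regulatory subunit, had -1.35 in the Ms4a8a clone and -0.94 in the vector clone. Pola2, the partner of Pola1, had array 3 differences of -1.20 in the Ms4a8a clone and -0.69 in the vector clone.

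The 7 clamp loader and strand joining genes had median array 3 differences of -1.48 in the Ms4a8a clone and -1.15 in the vector clone. Rfc5, a small subunit of the clamp loader, read 11.43, 11.60 and 9.26 on arrays 1, 2 and 3 of the Ms4a8a clone, against 11.64, 11.72 and 10.41 in the vector clone. Array 3 lay 4.77-fold lower in the Ms4a8a clone and 2.41-fold lower in the vector clone. Rfc1, the large subunit, read 9.33, 9.27 and 8.51 in the Ms4a8a clone, against 9.50, 9.36 and 8.48 in the vector clone. The Ms4a8a array was higher by 0.03 at number 3, the opposite order to that of Rfc5. Rfc2, Rfc3 and Rfc4 lay 1.20-fold, 1.54-fold and 1.36-fold lower in the Ms4a8a clone at number 3. Fen1, the flap nuclease that trims Okazaki fragments, and Lig1, the ligase that seals them, had array 3 differences of -2.17 and -2.22 in the Ms4a8a clone. In the vector clone the array 3 difference was -1.20 for Fen1 and -1.29 for Lig1.

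The RPA genes encode the single-strand binding complex. Rpa2 read 10.16, 10.14 and 7.74 on arrays 1, 2 and 3 of the Ms4a8a clone, against 10.31, 10.23 and 9.07 in the vector clone. Rpa1, the large subunit, read 12.09, 12.18 and 10.57 in the Ms4a8a clone, against 12.30, 12.32 and 11.11 in the vector clone. The array 3 differences of the vector clone were close for both, at -1.19 for Rpa2 and -1.20 for Rpa1. In the Ms4a8a clone they were -2.41 for Rpa2 and -1.57 for Rpa1.

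The 4 nucleotide synthesis genes had a median array 3 difference of -2.82 in the Ms4a8a clone, the lowest of the 8 sub-groups there, and of -1.71 in the vector clone. Tk1, the cytosolic thymidine kinase of dividing cells, read 10.47, 10.60 and 6.98 on arrays 1, 2 and 3 of the Ms4a8a clone, against 10.60, 10.55 and 8.12 in the vector clone. Array 3 lay 11.8-fold lower in the Ms4a8a clone and 5.48-fold lower in the vector clone. Rrm2, the small subunit of ribonucleotide reductase that is made in S phase, read 12.20, 12.18 and 9.21 in the Ms4a8a clone, against 12.33, 12.29 and 10.76 in the vector clone. The clones differed by -0.13 at number 1 and -0.11 at number 2, and at number 3 the Ms4a8a array was 2.91-fold lower. Rrm1, the large subunit of the same enzyme, had array 3 differences of -2.66 in the Ms4a8a clone and -1.86 in the vector clone. Tyms, which makes thymidylate, read 4.42, 4.15 and 3.12 in the Ms4a8a clone, against 4.21, 4.23 and 3.05 in the vector clone. Its array 3 differences were close, -1.16 in the Ms4a8a clone and -1.17 in the vector clone, but it was the only one of the 42 below the median level and lay near the low end of the table. No detection call was used, so a transcript at that level was not read as present or absent.

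The cyclin E and E2F genes had the widest range of array 3 differences among the sub-groups. Ccne2, a cyclin E that activates CDK2 at S phase entry, read 9.68, 9.89 and 5.79 on arrays 1, 2 and 3 of the Ms4a8a clone, against 9.83, 9.90 and 6.75 in the vector clone. Array 3 lay 16.0-fold lower in the Ms4a8a clone and 8.69-fold lower in the vector clone, the lowest array 3 differences of the 42 in both clones. Ccne1, the other cyclin E, read 8.36, 8.46 and 6.79 in the Ms4a8a clone, against 8.66, 8.62 and 6.51 in the vector clone. It went the other way at number 3, with the Ms4a8a array higher by 0.28, while the difference was -0.30 at number 1 and -0.17 at number 2. E2f1 and E2f2, activating E2F factors, had array 3 differences nearest to 0 in the sub-group. They were -1.34 for E2f1 and -1.02 for E2f2 in the Ms4a8a clone, against -0.95 for E2f1 and -0.60 for E2f2 in the vector clone.

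In the chromatin replication sub-group, Uhrf1, which carries DNA methylation over to the new strand, read 9.73, 9.68 and 6.12 on arrays 1, 2 and 3 of the Ms4a8a clone, against 9.89, 9.75 and 7.57 in the vector clone. Array 3 lay 12.0-fold lower in the Ms4a8a clone and 4.77-fold lower in the vector clone. Chaf1b, a subunit of the CAF-1 histone chaperone, read 8.79, 8.64 and 7.06 in the Ms4a8a clone, against 8.63, 8.53 and 7.96 in the vector clone. Both genes lay lower in the Ms4a8a clone at number 3, with differences of -1.45 for Uhrf1 and -0.90 for Chaf1b, and Chaf1b lay slightly higher in it at numbers 1 and 2.

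Genes with and without the E2F letters in a promoter window had similar medians on array 3. Only 4 exact words in windows of 300 bases were searched. The genes without them lack only these words, so the split does not sort genes by E2F control, which was not tested. The 15 genes with the letters had median array 3 differences of -1.97 in the Ms4a8a clone and -1.23 in the vector clone, and the 20 genes without them had -2.13 in the Ms4a8a clone and -1.23 in the vector clone. At number 3 the median of Ms4a8a minus vector was -0.72 with the letters and -0.89 without.

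A list of 104 other genes of replication, nucleotide synthesis and S phase control, 98 of them measured, was followed in the same way. Of the 98, 82 read lower on array 3 than on both other arrays in both clones (33.1% of all genes) and 12 read higher (26.3%). The median array 3 difference was -1.03 in the Ms4a8a clone and -0.87 in the vector clone, and it was -1 or lower in both clones for 41 (2.8% of all genes). In the limma tests 0 of the 98 passed without the block (0.0427% of all genes) and 0 with it (0.909%). In the blocked model the unadjusted p was under 0.05 for 27 with the Ms4a8a clone lower (6.3% of all genes) and for 6 with it higher (7.01%). In the blocked model without number 3 a single gene of the 98 passed, where 2.65% of all genes did. That gene was Tipin, a fork protection protein, with an adjusted p of 0.0351 in limma. It was chosen for mention after its values were seen. Tipin read 12.36, 12.44 and 10.93 on arrays 1, 2 and 3 of the Ms4a8a clone, against 12.85, 12.98 and 11.96 in the vector clone, so it was lower in the Ms4a8a clone at every number and its ranges overlapped.

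Among 23 origin and fork factors the array 3 difference was lower in the Ms4a8a clone by 0.5 or more for 12, with medians of -1.28 in the Ms4a8a clone and -0.85 in the vector clone. Among 18 enzymes of purine and pyrimidine ring synthesis the count was 0, with medians of -0.70 in the Ms4a8a clone and -0.85 in the vector clone. Among 14 deoxynucleotide and folate enzymes it was also 0, with medians of -0.94 in the Ms4a8a clone and -0.71 in the vector clone. The background for this count is the 4.85% of all genes given above. Dscc1, a subunit of an alternative clamp loader used in cohesion, read 8.32, 8.14 and 4.47 in the Ms4a8a clone, against 7.93, 8.22 and 6.19 in the vector clone, the lowest array 3 difference of these factors when averaged over the clones. Chtf8, its partner in that complex, read 9.54, 9.63 and 9.63 in the Ms4a8a clone, against 9.66, 9.61 and 9.86 in the vector clone, and array 3 was not the lowest. Dut, which destroys dUTP, read 8.46, 8.60 and 6.74 in the Ms4a8a clone, against 8.58, 8.77 and 6.97 in the vector clone. Tk2, the mitochondrial thymidine kinase, read 6.71, 6.45 and 7.56 in the Ms4a8a clone, against 5.95, 6.12 and 6.67 in the vector clone, so array 3 was the highest in each clone, unlike the cytosolic enzyme Tk1.

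In the polymerase subunit list, Pole3, a histone-fold subunit of the leading strand polymerase, read 9.10, 9.37 and 7.32 in the Ms4a8a clone, against 9.26, 9.33 and 7.58 in the vector clone. Pold4, the smallest subunit of the lagging strand polymerase, read 8.24, 8.21 and 9.51 in the Ms4a8a clone, against 7.75, 8.12 and 9.11 in the vector clone. These lay in opposite directions on array 3 in both clones. In the purine and pyrimidine list, Nme1, a nucleoside diphosphate kinase, read 12.55, 12.73 and 11.05 in the Ms4a8a clone, against 12.81, 12.85 and 11.48 in the vector clone. Adssl1, an adenylosuccinate synthase, read 11.08, 11.02 and 12.13 in the Ms4a8a clone, against 10.54, 10.73 and 11.27 in the vector clone, with array 3 highest in each clone.

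In the list of E2F and RB family genes and S phase kinases, medians of the array 3 difference were -0.99 in the Ms4a8a clone and -0.90 in the vector clone. E2f8, a repressing E2F factor, read 8.45, 8.47 and 5.16 in the Ms4a8a clone, against 8.65, 8.55 and 6.32 in the vector clone. Rb1, the retinoblastoma protein that restrains E2F factors, read 8.47, 8.35 and 10.11 in the Ms4a8a clone, against 8.48, 8.48 and 10.11 in the vector clone. Array 3 was the highest for Rb1 and the lowest for E2f8, and the clones were alike in Rb1 on arrays 1 and 3. In the checkpoint and chromatin list, Hells, a remodeller linked to DNA methylation, read 10.62, 10.64 and 7.93 in the Ms4a8a clone, against 10.80, 10.76 and 8.70 in the vector clone. Cdkn1a, the CDK inhibitor p21, read 11.02, 10.93 and 11.61 in the Ms4a8a clone, against 11.29, 11.19 and 12.08 in the vector clone, higher on array 3 in both clones.

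**Figure D5:**
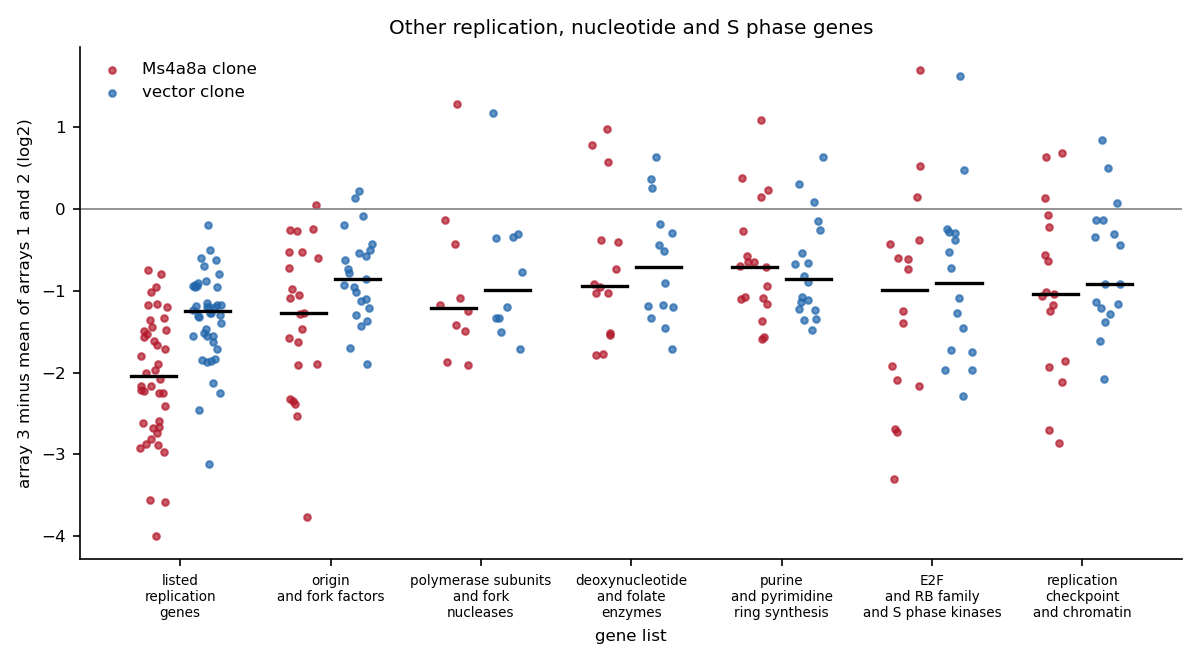
Difference between array 3 and the mean of arrays 1 and 2 (y axis, log2) for the 42 replication genes and 6 lists of other pathway genes (x axis), in the Ms4a8a clone (red, left) and the vector clone (blue, right), with black bars at the medians. The medians are -2.05 in the Ms4a8a clone and -1.25 in the vector clone for the 42 genes, and lie between -1.28 and -0.70 for the other lists in both clones.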

How the data were processed

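Gene expression was measured on 6 arrays, grouped by their titles. The authors deposited 1 log2 value per probe set and array. The sorted values are equal in all 6 columns, as quantile normalisation gives. The summary method and software are not given in the sources used here. Of 17370 probe sets, 16387 had 1 gene symbol, 919 had none and 64 were controls. The numbers of 16358 matched RefSeq gene IDs (GRCm38.p6), and 1773 symbols were updated. No further scaling, offset or filter was applied.

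Clones were compared with limma 3.58.1 in R 4.3.3 (lmFit and eBayes, two-sided, adjusted by Benjamini-Hochberg over 16387 genes, threshold 0.05). The fit was checked on simulated data. Differences at single replicate numbers and of array 3 have no test. The number of arrays limits the precision.

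Same-numbered arrays, numbered by title, deviated together from their clone means (r of 0.709, 0.809 and 0.865 for numbers 1, 2 and 3). All 3 were over the limit of 0.1 used here for pairs, so a model with the number as a block was fitted too. Ms4a8a array 2 with vector array 1 gave 0.713 and Ms4a8a array 1 with vector array 2 gave 0.617, so the check does not tell numbers 1 and 2 apart. Deviations from a clone mean cancel out, so the shared array 3 difference by itself draws arrays 1 and 2 of both clones together. The r of numbers 1 and 2 is therefore no separate reason for the block.

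The genes, lists, sub-groups and promoter words were chosen with earlier results of these data known. Values per array are given, in each sub-group, for the member lowest on array 3 against arrays 1 and 2, the member with the largest clone difference at number 3 beyond numbers 1 and 2, and each member against the sub-group's direction, and, in each other list, for the genes lowest and highest on array 3. Rpa1 and Chaf1b were added. Alternatives covered the block, left-out arrays, level filters, array weights, cyclic loess and a trended robust prior.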

Additional observations from a re-analysis of the deposited data

How the results depend on the processing

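The alternatives changed how many of all genes passed, and none of the 42 replication genes passed in any of them. All genes called were 7 without the block, 149 with the replicate block, 147 without both arrays of number 3, 1 when genes under the median level were dropped, 47 with array weights, 12 with a trended robust prior, and between 0 and 8 when 1 array was left out. A block without number 3, chosen after seeing the data, gave 434 (2.65% of all genes), and 1 of the 98 other pathway genes passed there. The lowest adjusted p of the 42 over these limma settings was 0.132, and the replicate block changed no call among them. Their median clone difference of -0.36 ranged from -0.81 without vector array 3 to 0.33 without Ms4a8a array 3, where 38 of 42 genes changed sign. Both of these fits kept the array 3 of 1 clone only, so the array 3 difference entered them as a clone difference. Without both arrays of number 3 the median was -0.11, and 7 of 42 genes changed sign. With 1 array left out, the differences of single genes ranged from -0.95 to 0.14 for Gins1, -0.88 to 0.26 for Mcm2, -0.93 to 0.31 for Orc1, -0.89 to 0.40 for Orc6, -1.19 to 0.15 for Pole, -0.64 to 0.23 for Rfc4 and -0.70 to 0.23 for Rpa1, each highest without Ms4a8a array 3. For Pola2 they ranged from -0.65 to -0.01, also highest without Ms4a8a array 3. The high end of each of these ranges thus holds the same imbalance of number 3. The vector array 3 median of -1.25 was -1.15 after cyclic loess. The medians at single numbers kept their sign under cyclic loess and without the 1 gene below the median level. A group of 3 arrays is all that each clone has, and without a detection call low values such as those of Tyms cannot be separated from background.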
